A study of Mus musculus with 18 samples.

Results

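Liver transcripts of male C57BL/6J mice on a control diet were compared between 4 mice given fenofibrate (Ctrl+FF) and 5 mice given none (Ctrl). Fenofibrate is a lipid-lowering drug whose active acid is a ligand of the nuclear receptor PPARα. The comparison used every library of these groups, 9 of the 18 in the series, and the other 9 came from mice on a riboflavin-deficient diet without or with the drug (B2D and B2D+FF). Each library was made from liver mRNA of 1 mouse. All the mice carried wild-type alleles, started their diet at 4 wk of age and were fasted overnight before harvest. The Ctrl mice ate the control diet for 1 month and were 8 wk old at harvest. The Ctrl+FF mice ate it for 9 wk, were given fenofibrate from week 7 to week 9 with the last dose 2 hr before harvest, and were 13 wk old. A vehicle for the Ctrl mice and the hour of harvest are not given in the sources used here. The study asked how PPARα activation acts in a riboflavin-deficient liver, and the Ctrl+FF mice show the drug on a diet with riboflavin. Because fenofibrate, weeks on diet, age, last dosing and table of deposited values all differed between Ctrl and Ctrl+FF, they cannot be told apart, and each difference below is one between these mice.

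PPARα is the receptor through which the liver responds to fasting and to fibrate drugs. It binds DNA with RXRα at pairs of AGGTCA-like motifs separated by a single base, called DR1 elements. In mice its activation is known to raise enzymes that break down fatty acids in the endoplasmic reticulum, peroxisomes and mitochondria, and to increase the number of peroxisomes. Fasting alone already activates the receptor, since fatty acids released from adipose tissue reach the liver.

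Of the 45 genes chosen for description in every case, 32 had promoters in the RefSeq table used here, 37 promoters in all, each 250 bases before and 50 after a start. The DR1 element was searched on both strands as AGGTCA, any base, AGGTCA, which 0.0396% of all 32851 promoters held and none of the 37. The same search with any base in the fourth place of each motif, AGGNCA, matched 0.381% of all promoters and 1 of the 37, that of Fabp1, which encodes the liver fatty acid binding protein. The promoter of Fabp1 is shown as the only match among the 37. The 250 bases before the start lie at chr6:71199629-71199878 on the plus strand of GRCm38.p6, and the capitals mark the match, read on the strand opposite to the gene, 54 bases before the start.
Fabp1: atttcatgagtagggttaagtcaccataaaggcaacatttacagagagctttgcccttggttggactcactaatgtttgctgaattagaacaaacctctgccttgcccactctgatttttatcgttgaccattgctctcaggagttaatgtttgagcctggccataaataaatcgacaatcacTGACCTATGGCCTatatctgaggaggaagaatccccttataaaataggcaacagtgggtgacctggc
A match is a description of letters in this window and not a binding site. Cyp4a14, Cpt1b, Scd1, Cidea, Apoc3, Cyp7a1, Cyp4a10, Angptl4 and Vnn1 were among those not matched.

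The libraries held 17134133 to 21266792 reads on genes in Ctrl and 16290762 to 17386688 in Ctrl+FF. Pearson's r of log2(FPKM + 1) was 0.990 to 0.996 between Ctrl mice, 0.993 to 0.997 between Ctrl+FF mice and 0.970 to 0.978 between the groups, and no library stood apart. FPKM, fragments per kilobase of gene scaled to library size, were rescaled to a common library size, and a gene was tested if its mean reached 0.5 FPKM in either group. Aard lay just inside this limit with a larger group mean of 0.50009 FPKM, and Fgfr1 just outside with 0.49998. Through the Ctrl+FF mean alone 361 genes passed, of which 222 passed the test, and through the Ctrl mean alone 252, of which 96 did. Log2 fold changes are of log2(FPKM + 1), a scale on which the change of weakly expressed genes comes out too small, and adjusted p-values are from limma with the Benjamini-Hochberg method over all genes tested. In liver RNA, fewer cells of a type and less RNA per cell cannot be told apart.

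At an adjusted p under 0.05 in limma, 1949 of 10552 protein-coding genes were higher in Ctrl+FF (18.5%) and 1582 were lower (15.0%), 33.5% together, and the median log2 change was -0.01. A log2 change of 1 or more in size was reached by 327 of the higher genes (3.10%) and 152 of the lower (1.44%). Every Ctrl+FF mouse lay above every Ctrl mouse for 15.7% of genes and below for 12.5%. With the deposited values not rescaled, the higher genes were 45.0% of those past the threshold, against 55.2% here.

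**Figure D1:**
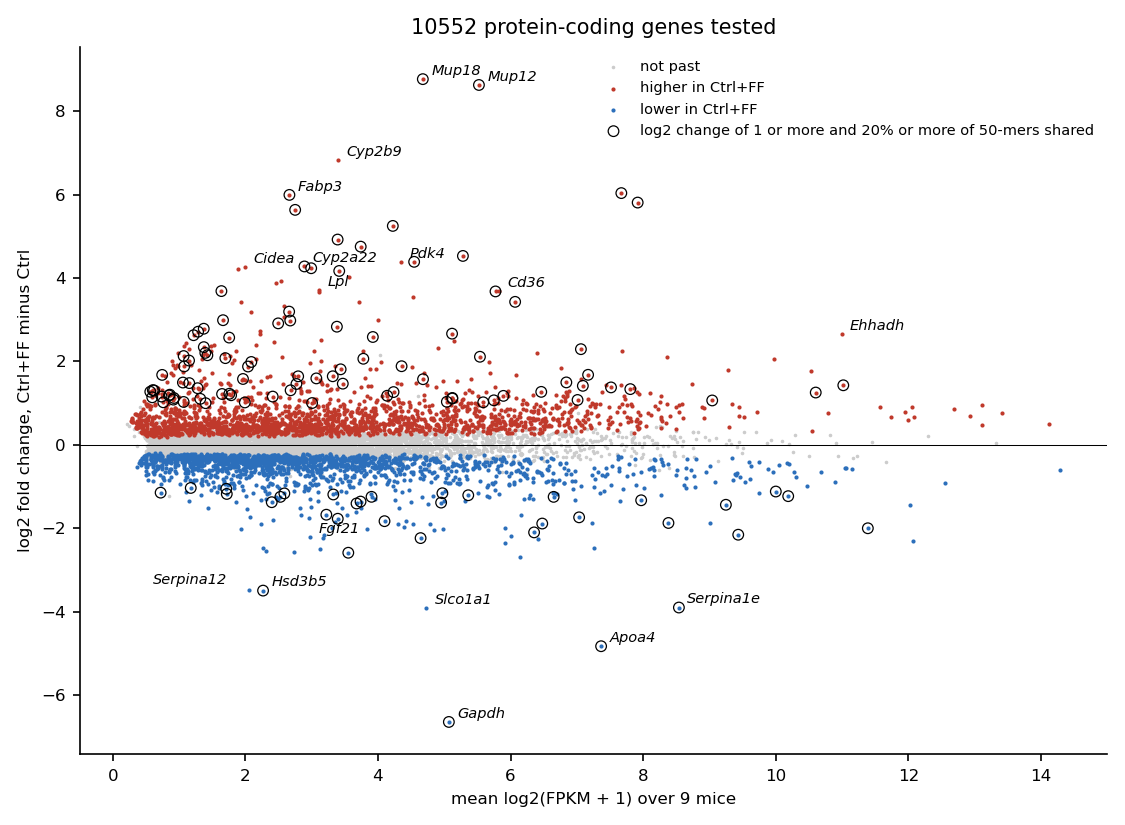
Log2 fold change, Ctrl+FF minus Ctrl (y axis), against the mean log2(FPKM + 1) over the 9 mice (x axis) for the 10552 genes tested, with genes past an adjusted p of 0.05 in limma in red (higher in Ctrl+FF) or blue (lower). Rings mark genes with a log2 change of 1 or more in size that share 20% or more of their 50-base words with another gene. Ehhadh, Pdk4, Cd36 and Lpl stand high among genes without a ring, and Slco1a1 and Serpina12 low.

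Genes of fatty acid breakdown, uptake and storage were higher in Ctrl+FF mice more often than genes at large. Of the lists described, the acyl-CoA thioesterases (11 of 14 members higher), the mitochondrial β-oxidation genes (17 of 23) and the uptake and binding genes (13 of 20) had the largest shares of higher members among the fatty acid lists. The list medians were 0.85, 0.43 and 0.75, beside -0.01 for all genes tested and 18.5% of all genes higher. Each list count below stands beside 18.5% of all genes higher and 15.0% lower. Secreted liver proteins, interferon-stimulated genes and genes of bile acid synthesis and transport were mostly lower or not past the threshold.

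**Figure D2:**
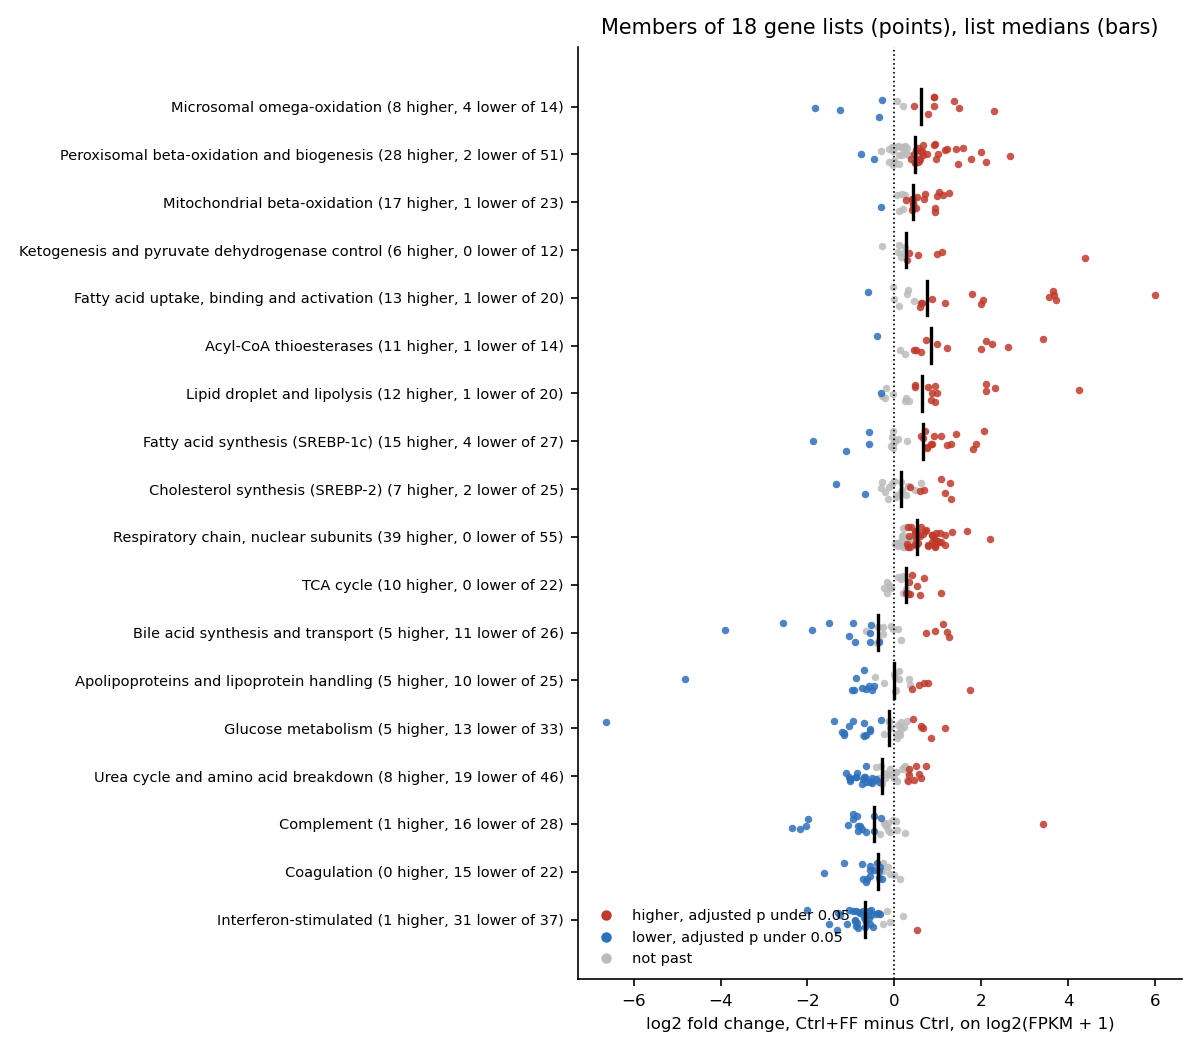
Log2 fold change, Ctrl+FF minus Ctrl (x axis), of the members of 18 gene lists (y axis; points), with higher members in red, lower in blue and those not past an adjusted p of 0.05 in limma in grey. Black bars are list medians and the dotted line is the median of all genes tested. The oxidation, uptake and thioesterase lists lie to the right of it, and complement, coagulation and interferon-stimulated genes to the left.

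The receptor and its partners differed little. Ppara was at 45.0, 44.1, 45.9, 52.5 and 45.1 FPKM in the Ctrl mice and at 54.4, 61.8, 56.5 and 54.9 in the Ctrl+FF mice. The groups did not overlap, but the highest Ctrl mouse lay within 2 FPKM of the lowest Ctrl+FF mouse. Its log2 change was 0.29 ± 0.09 (SE) with an adjusted p of 0.027 in limma, and this call was lost without Ctrl replicate 2, Ctrl+FF replicate 2 or Ctrl+FF replicate 3 (the largest adjusted p was 0.102). It was also lost with scaling to total reads (0.057), quantile normalization (0.283), the deposited scale (0.0702) and a fit of all 18 libraries (0.0792). Rxra, the partner with which the receptor binds DNA, was at 89.4 ± 12.4 FPKM (SD, n = 5) and 74.3 ± 9.65 (SD, n = 4), with an adjusted p of 0.127. Ppargc1a, a coactivator of mitochondrial genes, did not pass either (3.56 and 1.91 FPKM, adjusted p = 0.082), and Ctrl replicate 3 was high at 7.12. Pparg, the adipose relative of the receptor, fell from 2.92 to 1.47 FPKM (log2 change -0.62, adjusted p = 0.0162). Of 15 genes of the receptor and its partners these 2, Ppara and Pparg, passed the threshold, and the median was -0.04.

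Microsomal ω-oxidation turns the far end of a fatty acid into an acid group, and its Cyp4a enzymes are classical targets of fibrates in rodents. Cyp4a14 was at 2950, 3040, 3230, 2610 and 4620 FPKM in Ctrl and at 6100, 6320, 5360 and 6630 in Ctrl+FF. Every Ctrl+FF mouse was above every Ctrl mouse, and the untreated, fasted mice were already at 2610 FPKM or more. The log2 change was 0.92 ± 0.16 with an adjusted p of 0.000973 in limma, a 1.85-fold difference of the means. Cyp4a10 differed by nearly the same ratio (2300 ± 253 against 4330 ± 201 FPKM, 1.88-fold), with 29.8% of its 50-base words shared with another gene. Cyp4a31 was the member with the largest rise (66.3 to 323 FPKM, 4.87-fold, 20.6% shared), and Cyp4a32 rose 2.77-fold (43.8% shared). Aldh3a2, the fatty aldehyde dehydrogenase that completes the reaction, rose from 156 to 395 FPKM.

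Not all of the pathway moved this way. Cyp4f14, which oxidizes leukotrienes and other lipid mediators, was at 43.7, 46.2, 25.6, 41.3 and 31 FPKM in Ctrl and at 10.7, 8.15, 10.2 and 9.26 in Ctrl+FF. All of the Ctrl+FF mice lay below all of the Ctrl mice. It fell by 1.84 ± 0.16 on the log2 scale (adjusted p = 3.47e-06 in limma), and Adh4, an alcohol dehydrogenase, fell from 75.6 to 30.7 FPKM. In all, 8 of the 14 members were higher and 4 lower, with a median of 0.61. Without the 5 members that share 20% or more of their 50-base words, 3 of 9 were higher and 4 lower, with a median of 0.07.

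Peroxisomal β-oxidation shortens very long chain and dicarboxylic fatty acids. Ehhadh (ENSMUSG00000022853, chr16:21761287-21787807, minus strand, GRCm38), the peroxisomal bifunctional enzyme, was at 958, 811, 790, 722 and 1320 FPKM in the Ctrl mice. In the Ctrl+FF mice it was at 5990, 6540, 4700 and 5610. The lowest treated mouse was more than 3 times as high as the highest untreated one. The log2 change was 2.66 ± 0.18 with an adjusted p of 2.73e-07 in limma, a 6.21-fold rise.

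Acaa1b, a peroxisomal thiolase of the last step, rose 2.68-fold from 1350 ± 209 to 3620 ± 442 FPKM, with 39.6% of its 50-base words shared with another gene. Pex11a, which drives the division of peroxisomes, rose 2.98-fold from 82.4 ± 16.7 to 246 ± 19.2 FPKM. Crat, which ties acetyl groups to carnitine for export from the organelle, rose from 31 to 71.2 FPKM, and Abcd3, a transporter of the peroxisomal membrane, from 150 to 282. Catalase, Cat, which removes hydrogen peroxide, was at 1080 ± 191 and 1140 ± 61.8 FPKM and did not pass (adjusted p = 0.629). Phyh, which starts the α-oxidation of branched fatty acids, fell from 1620 to 952 FPKM, and Scp2, a sterol carrier and thiolase, was the other lower member (log2 change -0.48). Of 51 members 28 were higher and 2 lower, and the median was 0.47.

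Mitochondrial β-oxidation genes had a list median of 0.43, close to the 0.47 of the peroxisomal list. Acadm, the medium chain dehydrogenase, was at 216, 231, 195, 218 and 248 FPKM in Ctrl and at 374, 400, 339 and 346 in Ctrl+FF. No value was shared between groups, and the rise was 1.65-fold (log2 change 0.72 ± 0.10, adjusted p = 0.000234 in limma). Slc25a20, which carries acylcarnitines across the inner membrane, rose 1.98-fold, and Slc22a5, the carnitine transporter of the plasma membrane, 2.05-fold. Etfb, a subunit of the flavoprotein that takes electrons from the acyl-CoA dehydrogenases, rose 2.23-fold, with 58.2% of its exon bases overlapped by another gene. Acad10 and Acad12, less studied dehydrogenases, rose 2.07-fold and 2.94-fold.

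The entry enzyme moved the other way. Cpt1a, the liver carnitine palmitoyltransferase of the outer membrane, was at 233, 190, 242, 228 and 215 FPKM in Ctrl and at 190, 176, 160 and 192 in Ctrl+FF. The groups overlapped at the lowest Ctrl mouse. The log2 change was -0.30 ± 0.11 with an adjusted p of 0.0452, and the call was lost without any 1 library other than Ctrl replicates 2 and 5 (largest adjusted p = 0.132). Cpt1b, the muscle form, rose from 0.144 to 0.637 FPKM, but 81.4% of its exon bases overlap another gene, and reads of overlapping genes cannot be told apart in libraries that do not mark strand. Hadha and Hadhb, the subunits of the trifunctional protein, were at 90.2 and 108 FPKM (adjusted p = 0.108) and at 75.1 and 84.5 FPKM (adjusted p = 0.229). In all 17 of 23 members were higher and 1 was lower, Cpt1a.

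Ketone body genes and the control of pyruvate dehydrogenase were led by a single gene. Pdk4 (chr6:5483351-5496309, minus strand), a kinase that turns pyruvate dehydrogenase off and so spares glucose, was at 3.12, 4.58, 4.28, 2.94 and 7.76 FPKM in Ctrl. In Ctrl+FF it was at 81.0, 122, 96.7 and 151. The lowest treated mouse was more than 10 times as high as the highest untreated one. The rise was 24.9-fold (log2 change 4.38 ± 0.23, adjusted p = 2.64e-08 in limma). It was 1 of the 10 largest in log2 change among genes past the threshold without overlap, predicted gene models left out. Slc16a1, a carrier of ketone bodies and lactate, rose 2.22-fold. Of 12 members 6 were higher and none lower by limma, and the median was 0.26. Where no member of a list passed in a direction by limma, here and below, 0 passed by voom on recovered reads, and 0 had an unadjusted p under 0.05 except in the tricarboxylic acid cycle list (1 lower) and among macrophage markers.

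**Figure D3:**
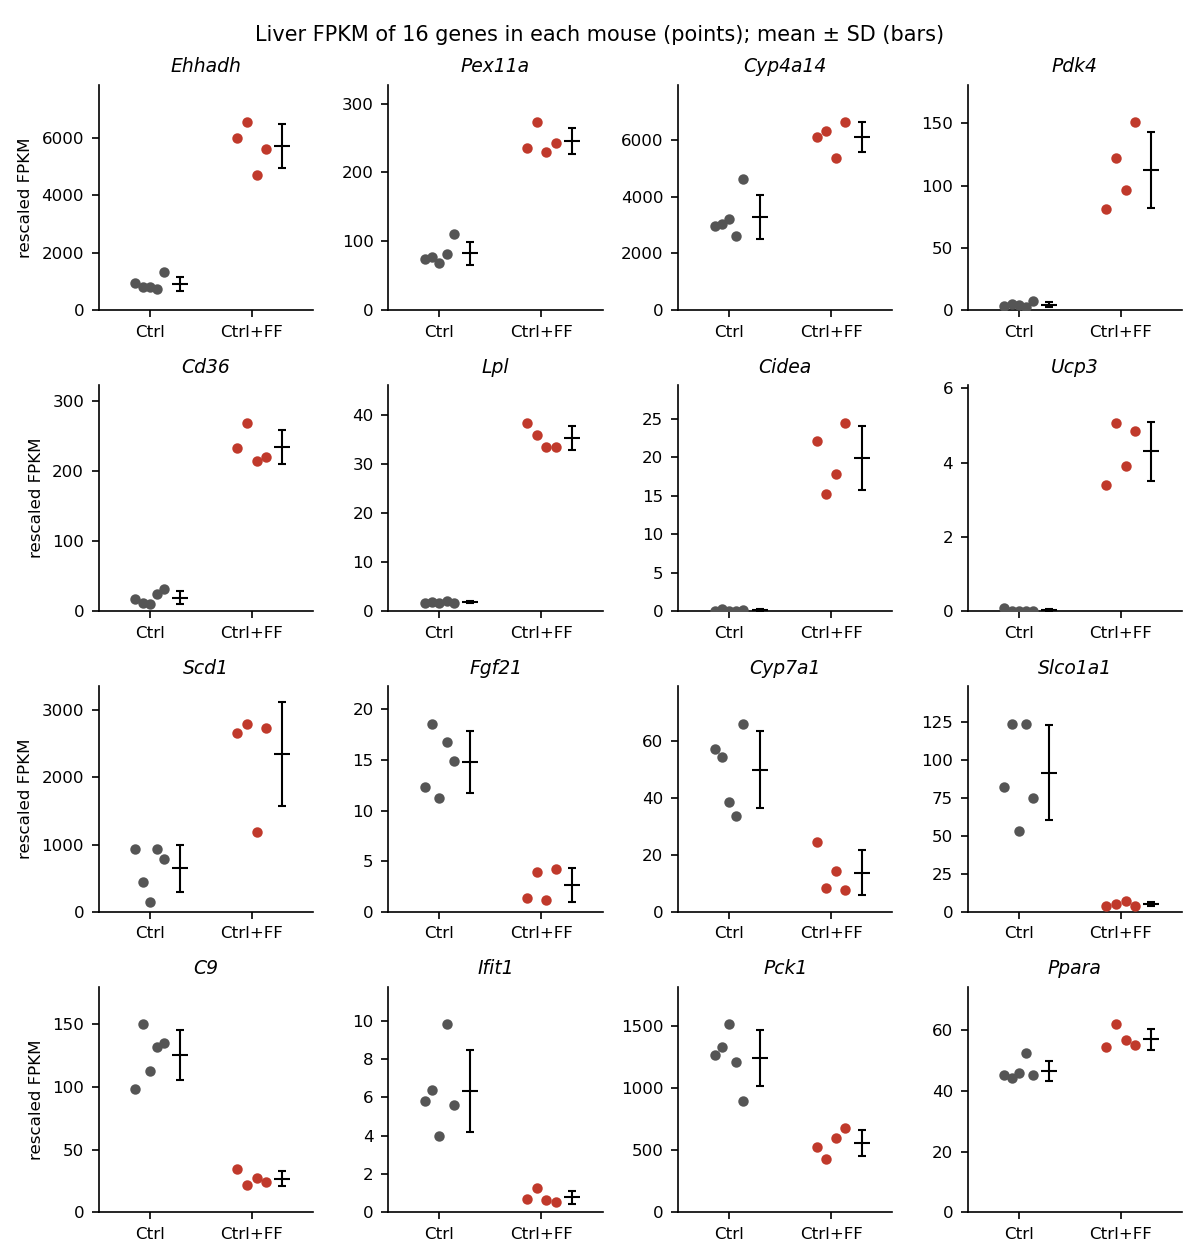
Rescaled FPKM (y axis of each panel, from 0) of 16 genes in each of 5 Ctrl mice (grey points) and 4 Ctrl+FF mice (red points), with the mean and SD beside them. The groups are apart for Ehhadh, Pdk4, Lpl and Slco1a1, while Scd1 has 1 low Ctrl+FF mouse at 1190 FPKM and Ppara lies at similar levels in both groups.

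Among genes of fatty acid uptake and binding were several that are better known from adipose tissue, heart and muscle. Cd36, the fatty acid translocase, was at 16.9, 11.4, 9.89, 24.8 and 31.7 FPKM in Ctrl and at 233, 269, 215 and 220 in Ctrl+FF. Lpl (chr8:68880491-68907448), the lipase that releases fatty acids from circulating triglyceride, was at 1.68, 1.84, 1.57, 2.03 and 1.64 FPKM in Ctrl and at 38.3, 35.8, 33.4 and 33.3 in Ctrl+FF. The treated mice were far above the untreated ones for both genes, although the untreated mice varied widely for Cd36, with rises of 12.4-fold (adjusted p = 7.37e-07) and 20.1-fold (adjusted p = 2.75e-11) in limma. Fabp3, the heart form of the fatty acid binding proteins, had no read in any Ctrl mouse and was at 50.3, 77.6, 49.2 and 80.9 FPKM in Ctrl+FF. Against a floor of 3 reads per library, 0.208 FPKM, it was at least 309-fold higher, and 37.3% of its 50-base words are shared with another gene. Fabp4, the adipose form, rose from 1.81 ± 0.242 to 34.8 ± 5.77 FPKM (19.2-fold), and Slc27a1, a fatty acid transporter of muscle and fat, from 6.84 ± 1.65 to 90.1 ± 10.3 (13.2-fold).

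The liver form moved less on this scale. Fabp1 was at 5490, 5380, 3260, 6460 and 5330 FPKM in Ctrl and at 8790, 10300, 8710 and 9020 in Ctrl+FF. The 2 sets of mice did not overlap, and the difference was 1.77-fold (log2 change 0.86 ± 0.18, adjusted p = 0.00301 in limma). Fabp1 is 553 bases long, and the 303 genes of up to 1000 bases had a median log2 change of 0.53. With the trend over gene length removed, its log2 change was 0.19 (adjusted p = 0.506). Vldlr, the very low density lipoprotein receptor, rose from 0.362 to 4.68 FPKM, Acsl1, the main long chain acyl-CoA synthetase, from 215 to 484, and Dbi, which binds acyl-CoA, from 361 to 1240. Of 20 members 13 were higher and 1 lower, Acsm1 (log2 change -0.60).

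The acyl-CoA thioesterases split acyl-CoA into free fatty acid and coenzyme A. Acot2, the mitochondrial enzyme, was at 22.5, 15.9, 24.7, 21.3 and 29.5 FPKM in Ctrl and at 242, 309, 193 and 273 in Ctrl+FF. Acot1, its cytosolic relative, was at 112, 86.6, 92.6, 106 and 118 FPKM and at 482, 580, 414 and 488. In both cases all the treated mice were several times above the untreated ones. The rises were 11.2-fold (adjusted p = 1.96e-08, 27.7% of 50-base words shared) and 4.77-fold (adjusted p = 6.09e-08, 19.2% shared) in limma. The peroxisomal Acot3 and Acot4 rose 4.40-fold (21.2% shared) and 4.05-fold (13.4% shared). Acot5 rose from 0.0354 ± 0.0267 FPKM, at most 2 reads in a library, to 5.45 ± 0.884 (22.1% shared). Them4 was the lower member (log2 change -0.41, adjusted p up to 0.131 with 1 library left out), and 11 of 14 were higher.

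Genes of lipid droplets were higher as well. Cidea, a protein that enlarges droplets and is abundant in brown fat, was at 0.0471, 0.246, 0, 0 and 0.12 FPKM in Ctrl, at most 5 reads in a library. In Ctrl+FF it was at 22.1, 15.2, 17.9 and 24.5. It was near 0 in each untreated mouse and well above it in each treated one (log2 change 4.26 ± 0.13, adjusted p = 2.16e-10 in limma). Cidec, its adipose relative, rose 1.92-fold from 36.1 ± 10 to 69.2 ± 13.7 FPKM, and Plin2, the main droplet coat protein of liver, 1.73-fold from 192 ± 22.7 to 332 ± 61.5. Plin4 rose 5.96-fold, Fitm1, which helps droplets to bud, 5.08-fold, and Hsd17b11, a droplet dehydrogenase, 4.29-fold. Cideb, the form of the hepatocyte that loads lipoprotein particles, was the lower member (log2 change -0.30), a call lost in leaving out single libraries (largest adjusted p = 0.102). Of 20 members 12 were higher and 1 lower, with a median of 0.63.

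Adipocyte markers were read beside these genes, since several are shared with fat. Adipoq, the defining adipocyte hormone, was at 0 to 0.0828 FPKM in Ctrl, at 2.52 in Ctrl+FF replicate 1, and at 0.0906, 0.0435 and 0 in the other Ctrl+FF mice. Cfd, adipsin, was at 0.713, 0.062, 0.217, 0.542 and 0.252 FPKM in Ctrl and at 20, 17.7, 13.7 and 6.35 in Ctrl+FF. So Adipoq was high in 1 treated mouse, whereas Cfd, Cd36, Lpl and Cidea were high in all 4. Of the 3 adipocyte markers tested, Cfd was higher and Adipoq and Car3 did not pass. Cfd and Adipoq averaged 0.357 and 0.0385 FPKM in Ctrl. Both entered the test only through their Ctrl+FF means of 14.4 and 0.664 FPKM. The summed level of the 6 listed markers was 39.6 to 336 FPKM in Ctrl and 105 to 270 in Ctrl+FF. Most of that sum was Car3, since Adipoq and Cfd were at the levels above and the members not tested averaged under 0.5 FPKM. The sum therefore does not follow Adipoq or Cfd.

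Other genes tied to PPARα included uncoupling proteins, glycerol channels and the hormone FGF21. Ucp3, the uncoupling protein of muscle, was at 0.0699 FPKM in 1 Ctrl mouse (4 reads), at 0 in the other 4, and at 3.39, 5.07, 3.91 and 4.85 in Ctrl+FF. Ucp2, the widespread form, rose 3.89-fold from 4.17 ± 1.24 to 16.2 ± 1.49 FPKM. Aqp3 and Aqp7, channels for water and glycerol, rose from 0.373 to 6.5 FPKM and from 0.0438 to 2.92, and Krt23, a keratin of the stressed liver, from 3.95 to 48.0. Vnn1, the pantetheinase used as a marker of PPARα activity, rose 1.70-fold from 94.3 ± 26.3 to 160 ± 22.2 FPKM (adjusted p = 0.00739 in limma).

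Both secreted targets departed from this direction. Fgf21 (chr7:45613886-45615490, minus strand), the fasting hormone, was at 12.3, 18.6, 11.2, 16.8 and 14.9 FPKM in Ctrl and at 1.31, 3.95, 1.14 and 4.19 in Ctrl+FF. Every treated mouse was below every untreated one. It fell by 2.21 ± 0.26 on the log2 scale (adjusted p = 4.37e-05 in limma), a 5.58-fold difference of the means. Angptl4, an inhibitor of lipoprotein lipase, was at 71.8 ± 16 FPKM in Ctrl and 70.9 ± 1.93 in Ctrl+FF, with an adjusted p of 0.972. Txnip, a redox protein that opposes glucose uptake, rose 1.64-fold, with 19.4% of its exon bases overlapped by other genes. Of 25 members of this list 15 were higher and 4 lower.

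Genes of fatty acid synthesis rose alongside those of breakdown. Srebf1, the transcription factor that drives them, was at 11.2, 5.38, 5.04, 10.2 and 7.10 FPKM in Ctrl and at 28.1, 31, 24.8 and 30.7 in Ctrl+FF. Scd1, the desaturase, was at 931, 438, 142, 935 and 786 FPKM and at 2660, 2800, 1190 and 2740. Neither gene overlapped between groups, but the Ctrl mice varied widely for Scd1, and Ctrl+FF replicate 3 was well below its group. The rises were 3.68-fold for Srebf1 (adjusted p = 2.03e-05) and 3.63-fold for Scd1 (adjusted p = 0.00629) in limma. Fasn, the fatty acid synthase, rose 2.69-fold from 5.64 ± 1.52 to 15.2 ± 1.17 FPKM, Acacb, the carboxylase of the mitochondrial surface, 2.96-fold, and Thrsp, a regulator of lipogenesis, 4.11-fold. Me1, which makes NADPH, rose 2.08-fold (28.3% of 50-base words shared).

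Elovl2, an elongase of polyunsaturated fatty acids, went down, from 270 ± 49.9 to 72.7 ± 12.9 FPKM (3.71-fold, adjusted p = 1.57e-06). Acly, which makes cytosolic acetyl-CoA, fell from 14 to 9.12 FPKM, and Elovl6 and Lpin1 were the other lower members (log2 changes -0.58 and -1.10, the call of Lpin1 lost at an adjusted p of 0.051 with 1 library left out). In all 15 of 27 members were higher and 4 lower, with a median of 0.67.

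Cholesterol synthesis genes did not move as a group. Stard4, a sterol carrier, fell from 12.7 to 4.12 FPKM. Hmgcs1, an early enzyme of the pathway, was at 11.6, 8.67, 6.58, 14.2 and 22.5 FPKM in Ctrl and at 22.1, 34.6, 20.6 and 28.3 in Ctrl+FF. The highest Ctrl mouse lay within the treated range, and the log2 change was 1.08 (adjusted p = 0.00863). Insig2, which holds the SREBP proteins back, rose 2.43-fold. Insig1, its relative, was at 27.3 and 25.0 FPKM (adjusted p = 0.98). Of 25 members 7 were higher and 2 lower, with a median of 0.17.

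Of 26 genes of bile acid synthesis and transport 5 were higher and 11 lower, with a median of -0.37. Cyp7a1, the rate-limiting enzyme of synthesis, was at 57.2, 54.4, 38.6, 33.8 and 66.2 FPKM in Ctrl and at 24.7, 8.47, 14.3 and 7.58 in Ctrl+FF. Slco1a1 (chr6:141907282-141946962, minus strand), an organic anion carrier of male liver, was at 82.3, 124, 53.4, 124 and 75 FPKM and at 4.06, 5.10, 7.18 and 3.79. No treated mouse reached the untreated range for either. Cyp7a1 fell 3.63-fold (adjusted p = 0.000374) and Slco1a1 18.3-fold (adjusted p = 1.25e-07) in limma, the latter 1 of the 10 largest falls in log2 change. Slco1a4 fell 9.45-fold, Slco1b2 from 361 to 174 FPKM and Slc10a2, a sodium-dependent bile acid carrier, 6.37-fold.

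Among the higher members, Abcc3 and Abcc4, pumps of the membrane facing blood, rose 2.37-fold and from 0.281 to 2.05 FPKM. Cyp8b1, which makes cholic acid, was at 452 ± 108 and 422 ± 43.9 FPKM (adjusted p = 0.768), and Nr1h4, the bile acid receptor FXR, at 62.1 and 51.2 (adjusted p = 0.0843).

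Apolipoprotein genes were split. Apoa1, the main protein of high density lipoprotein, was at 9060, 9560, 8080, 9210 and 5010 FPKM in Ctrl and at 4260, 3890, 4360 and 4410 in Ctrl+FF. Ctrl replicate 5 was the lowest untreated mouse and still above the treated ones. The fall was 1.93-fold (log2 change -0.92 ± 0.18, adjusted p = 0.00213 in limma). Apoa5, which promotes triglyceride clearance, fell from 724 to 385 FPKM and Apof from 532 to 270. Apoc3, an inhibitor of that clearance and a textbook target of fibrates, was at 1190 ± 227 and 1200 ± 164 FPKM (adjusted p = 0.917), and Apoe at 10200 and 10400 (adjusted p = 0.851). Apoc3 is 1014 bases long, and with the length trend removed its log2 change was -0.32 (adjusted p = 0.056 in limma).

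Apoa2, the second protein of high density lipoprotein, rose 1.69-fold from 8670 ± 1490 to 14700 ± 839 FPKM. It is 537 bases long, and with the length trend removed its log2 change was 0.09 (adjusted p = 0.644). Apoa4, which is induced by fasting and fat, fell from 773 ± 265 to 25.0 ± 4.55 FPKM, 30.9-fold. However, 60.9% of its 50-base words are shared and 69.8% of its exon bases overlap other genes, so its level is uncertain. Pltp, the phospholipid transfer protein, rose 3.22-fold. Of 25 members 5 were higher and 10 lower, with a median of -0.01. With the length trend removed 3 were higher and 11 lower, with a median of -0.36.

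Plasma proteins that the hepatocyte secretes were lower in many cases. The terminal complement components fell most. C9 was at 98.3, 150, 113, 132 and 135 FPKM in Ctrl and at 34.7, 21.5, 27.5 and 24.5 in Ctrl+FF, and C8b at 99.0, 166, 115, 157 and 97.8 and at 26.9, 15.5, 42.6 and 16.6. The groups lay apart for both. C9 fell 4.65-fold (adjusted p = 3.94e-07), C8b 5-fold (adjusted p = 3.08e-05), C6 4.32-fold and C8a 4.05-fold in limma. C3, the central component, was at 1160 ± 79.2 and 1380 ± 208 FPKM (adjusted p = 0.163). Of 28 complement genes 16 were lower and 1 higher, Cfd, which adipocytes also make, and the median was -0.48.

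Of 22 coagulation genes 15 were lower and none higher by limma at the adjusted threshold, with a median of -0.38. F11 fell 3.4-fold from 20.2 ± 3.46 to 5.92 ± 1.29 FPKM, Klkb1, prekallikrein, 2.32-fold (43.2% of exon bases overlapped by another gene), and F7 1.67-fold. F9 was at 80.9 and 73.0 FPKM (adjusted p = 0.311). Among 29 acute phase genes 7 were higher and 11 lower, with a median of -0.15. Crp fell 2.46-fold and Serpina3k 2.73-fold from 6610 to 2420 FPKM, whereas Orm3 rose from 0.906 to 7.62 FPKM and Lcn2 from 1.13 to 5.54. Fgb, fibrinogen β, was at 675, 701, 863, 728 and 632 FPKM in Ctrl and at 588, 543, 567 and 605 in Ctrl+FF. It was lower in each treated mouse, but the log2 change of -0.32 had an adjusted p of 0.0483, a call lost without any 1 library other than Ctrl replicate 5 (largest adjusted p = 0.135).

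Hormones and transport proteins from the liver followed. Of 22 secreted liver hormones 10 were lower and 1 higher, Gdf15 (1.40 to 3.81 FPKM, groups overlapping). Inhbc, an activin subunit, fell 2.79-fold, Fetub 2.24-fold and Hamp, hepcidin, from 2020 to 1030 FPKM with overlapping groups, a call lost without Ctrl+FF replicate 2 or 3 (adjusted p = 0.0558). Igf1 was at 59.6, 63.5, 56.9, 54.3 and 39.1 FPKM in Ctrl and at 44.6, 34.3, 45.9 and 43.7 in Ctrl+FF. The lowest untreated mouse was within the treated range, and the change did not pass (log2 change -0.36, adjusted p = 0.0695). Its binding proteins Igfbp2, Igfbp3 and Igfbp4 were lower (1.73-fold, 1.70-fold and 1.51-fold), and of 13 genes of the growth hormone axis 1 was higher, Stat5a.

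Hepatocyte markers as a whole were lower as well, and are given beside these lists since they share members. Of 9 tested 8 were lower, with a median of -0.60, and their summed level was 33700 to 43300 FPKM in Ctrl and 22900 to 26200 in Ctrl+FF. Alb, albumin, was at 24400 ± 3570 and 16000 ± 1070 FPKM (adjusted p = 0.00814). Hnf4a, a transcription factor that defines the hepatocyte, was at 138 ± 22 and 127 ± 16.7 (adjusted p = 0.555). Albumin, the defining product of the hepatocyte, was at 15100 FPKM or more in every library. The part of the hepatocyte markers in the falls of secreted proteins was not tested.

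Amino acid breakdown was lower in part. Ass1 and Asl, successive enzymes of the urea cycle, fell 2.20-fold (38.6% of 50-base words shared) and 2.12-fold, and Cps1, which starts it, 1.87-fold from 991 ± 196 to 531 ± 66.4 FPKM. Arg1, which ends it, was at 951 and 959 FPKM (adjusted p = 0.88). Tat, the tyrosine enzyme, was at 483, 676, 1460, 332 and 494 FPKM in Ctrl and at 322, 180, 367 and 362 in Ctrl+FF. These groups overlapped, Ctrl replicate 3 was high, and the adjusted p was 0.0435, a call lost without any 1 library other than Ctrl replicate 4 (largest adjusted p = 0.138). Of 46 members 8 were higher (17.4%, beside 18.5% of all genes) and 19 lower (41.3%, beside 15.0%), with a median of -0.30.

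Glucose genes were mixed. Pck1, the enzyme that commits carbon to gluconeogenesis, was at 1260, 1330, 1510, 1210 and 895 FPKM in Ctrl and at 528, 427, 599 and 679 in Ctrl+FF. It was lower in every treated mouse, by 2.22-fold (log2 change -1.15 ± 0.17, adjusted p = 0.000244 in limma). G6pc, which releases glucose, was at 153, 268, 120, 105 and 116 FPKM and at 194, 152, 206 and 155, with overlapping groups and an adjusted p of 0.372. Gys2, liver glycogen synthase, fell 2.31-fold, Ldha 2.31-fold and Slc2a2, the glucose carrier of the hepatocyte, from 67.1 to 33.9 FPKM. Mpc1, a subunit of the mitochondrial pyruvate carrier, fell 2.75-fold (26.3% of 50-base words shared), while its partner Mpc2 rose from 31.6 to 57.4 FPKM. Of 33 members 5 were higher and 13 lower, with a median of -0.12.

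Gapdh, also counted there, fell from 260 ± 27.2 to 1.62 ± 0.323 FPKM. This was the largest fall in log2 change among genes past the threshold without overlap, predicted gene models left out. Of its 50-base words 25.1% are shared with other genes, and many copies of Gapdh in the mouse genome are processed pseudogenes. Reads on processed pseudogenes made up 0.043% to 0.0504% of reads on genes in Ctrl and 0.346% to 0.423% in Ctrl+FF. Genes with no shared 50-base word passed with a log2 change of 1 or more in size in 4.57% of cases, and genes with over 50% shared in 23.9%. The levels of genes with near-identical copies are therefore uncertain between these groups, and the part of read assignment in them was not tested. Of 15 reference genes 3 were higher and 4 lower: Actb fell 1.38-fold and Ppia 1.81-fold, Hprt rose 2.18-fold, and Tbp was at 0.726 and 0.608 FPKM (adjusted p = 0.338).

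**Figure D4:**
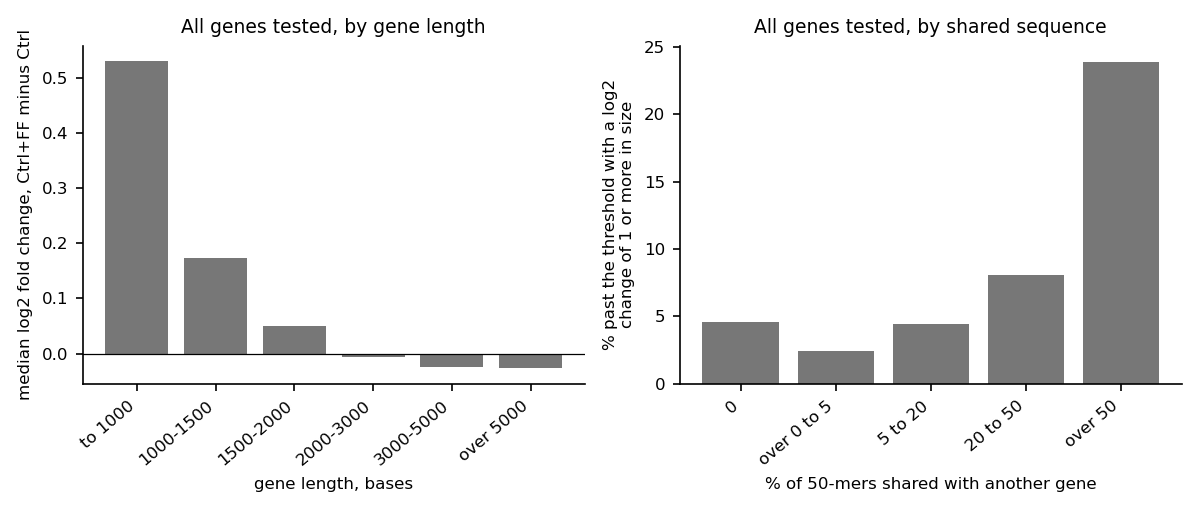
Left, the median log2 fold change, Ctrl+FF minus Ctrl (y axis), of all genes tested by gene length (x axis), from 0.53 for the 303 genes of up to 1000 bases to -0.03 for genes over 5000 bases. Right, the percentage of genes past an adjusted p of 0.05 in limma with a log2 change of 1 or more in size (y axis), by the percentage of 50-base words shared with another gene (x axis), from 4.57% with none to 23.9% with over 50%.

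Gene length moved with the comparison too. Of the genes of up to 1000 bases 59.4% were higher in Ctrl+FF, and of those over 5000 bases 13.9%. Many subunits of the respiratory chain are short, and 39 of 55 nuclear subunits were higher and none lower by limma, with a median of 0.52. Atp5k, a small subunit of the ATP synthase, rose 4.57-fold, Ndufa3, of complex I, 3.24-fold, and Cox7c, of complex IV, 2.48-fold (22.1% of 50-base words shared). All 11 subunits of up to 1000 bases were higher, with a median of 0.87 beside 0.53 for all genes of that length. Among the 26 subunits over 2000 bases 14 were higher, with a median of 0.30 beside -0.02. With the length trend removed 33 of the 55 were higher and none lower. Ndufa1, of 419 bases, then had a log2 change of 0.34 (adjusted p = 0.0707) in place of 1.16.

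The genes encoded in mitochondrial DNA were all 13 higher, with a median of 0.59. mt-Nd5 was at 2580, 3270, 3290, 3260 and 3310 FPKM in Ctrl and at 4830, 5090, 5410 and 6240 in Ctrl+FF. The groups were clearly apart, at 1.72-fold (adjusted p = 0.000608). With the length trend removed 5 of the 13 were higher and 1 lower. Of 22 genes of the tricarboxylic acid cycle 10 were higher and none lower by limma, among them Idh1 (1.61-fold) and Suclg2 (1.43-fold). Of 7 genes of flavin handling 3 were higher and 1 lower. Rfk, which makes FMN from riboflavin, rose 1.41-fold from 18.8 ± 1.12 to 26.4 ± 2.71 FPKM, and Slc52a2, a riboflavin transporter, 2.21-fold.

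Interferon-stimulated genes, which defend cells against viruses, were lower with few exceptions. Ifit1, an antiviral RNA sensor, was at 5.80, 6.41, 4, 9.81 and 5.61 FPKM in Ctrl and at 0.679, 1.27, 0.657 and 0.523 in Ctrl+FF. Even the lowest untreated mouse was above all the treated ones. It fell by 2.01 ± 0.19 on the log2 scale (adjusted p = 5.39e-06 in limma). Isg15, a ubiquitin-like modifier, fell 3.60-fold, Irf7, a factor that drives interferon genes, 2.91-fold and Usp18 3.37-fold. In all 31 of 37 members were lower (median -0.68), where 15.0% of all genes were, and 1 was higher, Bst2 (100 to 142 FPKM). Kupffer cell and macrophage markers did not pass in either direction in limma (0 of 12 tested, 1 higher and 1 lower at an unadjusted p under 0.05, and 0 by voom), and their summed level was 136 to 176 FPKM in Ctrl and 117 to 223 in Ctrl+FF.

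Genes of the integrated stress response, which the transcription factor ATF4 drives, were mostly not past the threshold. Atf4 was at 23.8, 31.7, 29.2, 27.8 and 25.7 FPKM in Ctrl and at 20.3, 22.2, 22.3 and 29.9 in Ctrl+FF, overlapping (adjusted p = 0.182). Sesn2 rose 2.42-fold, Atf5 fell 2.26-fold, and Ddit3 and Trib3 did not pass (adjusted p = 0.196 and 0.116). Of 20 members 6 were higher and 2 lower. Cdkn1a, the cell cycle inhibitor p21, was at 1.14, 0.451, 1.45, 0.295 and 2.28 FPKM in Ctrl and at 9.42, 17.1, 9.51 and 15.2 in Ctrl+FF. It rose in every treated mouse, 11.4-fold (adjusted p = 6.67e-06), and Gadd45b rose 2.77-fold. Of 14 targets of p53, which drives Cdkn1a, 3 were higher (21.4%), near the 18.5% of all genes tested. Of 19 cell cycle genes tested 1 was higher, Ccnb2, and 4 lower, and Mki67, the marker of dividing cells, lay below the limit with 0.0617 and 0.111 FPKM. Of 29 targets of the antioxidant factor NRF2 13 were higher and 4 lower, with a median of 0.29.

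Sex-biased liver genes were among the largest changes in these male mice, in both directions. Hsd3b5, a steroid dehydrogenase of male liver, was at 23.6, 29.9, 3.46, 30.9 and 4.21 FPKM in Ctrl and at 0.201, 0.364, 0.505 and 0 in Ctrl+FF. Cyp2b9, a P450 of female liver, was at 0.204, 0, 0, 1.2 and 0.347 FPKM and at 132, 147, 129 and 180. The groups were apart for both, although the untreated mice differed widely in Hsd3b5. Cyp2b9 rose 420-fold (adjusted p = 2.16e-10) and Hsd3b5 fell 68.8-fold (adjusted p = 0.000426, 21.2% of 50-base words shared) in limma. Cyp2a4, another P450 of female liver, rose from 0.268 to 5.63 FPKM (38.8% of 50-base words shared). Egfr, which is higher in males, fell from 42.3 to 10.4 FPKM.

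The major urinary proteins, pheromone carriers that make up much of the male list, were called in both directions. Mup12 rose from 2.36 to 1480 FPKM and Mup18 from 0.813 to 793, while Mup3 fell from 8910 to 1820 and Mup20 from 5150 to 1380. Mup12 and Mup18 share 85.4% and 89.6% of their 50-base words with other genes and Mup20 50.5%, and reads of such copies cannot be told apart. Of 32 male-biased genes 10 were higher and 13 lower, with a median of -0.07, and of the 11 with fewer than 20% of words shared 2 were higher and 8 lower, with a median of -1.91. Of 28 female-biased genes 15 were tested, and of these 9 were higher and 3 lower, with a median of 0.92. Members such as Cyp2b9 and Cyp2a4, with means of 0.35 and 0.268 FPKM in Ctrl, were tested only through their Ctrl+FF means. The share of higher members therefore rests partly on the filter. Serpina12, vaspin, fell from 11.9 ± 4.98 to 0.0923 ± 0.0845 FPKM.

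Drug metabolism and clock genes changed in both directions. Of 43 genes of drug-metabolising P450s, transferases and their receptors 11 were higher and 17 lower, with a median of 0.05. Without the 19 members that share 20% or more of their 50-base words, 7 of 24 were higher and 7 lower, with a median of 0.14. Ugt2b1, a glucuronidating enzyme, fell 6.79-fold, while the P450s Cyp3a11 and Cyp2e1 did not pass (adjusted p = 0.939 and 0.241). Cyp2b10, the usual marker of the receptor CAR, rose from 0.0757 to 1.64 FPKM, at most 5 reads in a Ctrl library. Dbp and Nr1d1, output and repressor of the circadian clock, fell 4.74-fold and 3.57-fold, and Arntl, the clock activator, rose from 0.328 to 0.845 FPKM. Of 19 clock genes 3 were higher and 7 lower.

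Position along the liver lobule was read from marker genes of its ends. Of 10 portal markers 6 were lower and none higher by limma, among them Cdh1 (3.17-fold), Pigr (2.57-fold) and Cyp2f2 (1.68-fold), with a median of -0.74. Of 9 central markers 4 were lower and 1 higher, with a median of -0.31. Cyp1a2, a central marker, was at 89.0, 78.6, 70.6, 148 and 1860 FPKM in Ctrl and at 42.7, 35.7, 31.9 and 29.9 in Ctrl+FF, so that its mean of 448 FPKM rested on Ctrl replicate 5. Without that mouse its log2 change was -1.39 (adjusted p = 0.000417 in limma) in place of -2.25. Its adjusted p of 0.0371 rose to at most 0.0751 with 1 library left out, and the call was lost without Ctrl replicate 4 or any Ctrl+FF mouse. Endothelial markers did not pass in either direction (0 of 10), nor did lymphocyte markers (0 of 4). Stellate cell markers were lower for 4 of 13 (Dcn, Ecm1, Colec11 and Hgf, 1.39-fold to 1.74-fold), and the call of Ecm1 was lost without any 1 library other than Ctrl replicate 2 or Ctrl+FF replicate 2 (largest adjusted p = 0.101). The globin genes, markers of red cells, were higher for 4 of 5 erythroid markers, and all 4 share over 50% of their 50-base words. The fifth, Alas2, which starts heme synthesis in red cell precursors, was lower at 20.6 and 15.6 FPKM (adjusted p = 0.0466 in limma), a call lost without any 1 library other than Ctrl replicate 3 (largest adjusted p = 0.129). Of 3 cholangiocyte markers 1 was higher and 2 lower. The summed level of that list was 11.5 to 38.6 FPKM in Ctrl and 7.15 to 11.7 in Ctrl+FF. Most of it was Spp1 (9.51 to 35.1 and 4.94 to 9.85 FPKM). Among 3 neutrophil markers 1 was higher (summed level of the list 0.845 to 2.43 FPKM in Ctrl and 2.65 to 4.54 in Ctrl+FF). That 1, S100a9, overlapped between groups (adjusted p = 0.0408), did not pass by voom (adjusted p = 0.0963), and had a log2 change of -0.21 with the length trend removed.

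On the riboflavin-deficient diet the same genes were read in separate mice. By limma in B2D+FF against B2D, 19.7% of genes were higher and 11.9% lower, and the peroxisomal list had 31 higher and 1 lower of 51, beside 28 and 2 on the control diet. Ehhadh went from 1880 to 6810 FPKM there (log2 change 1.91, beside 2.66 on the control diet), Pdk4 from 12.2 to 217 (3.92 beside 4.38) and Cyp4a14 from 5170 to 7430 (0.53 beside 0.92). Fgf21 was at 20.9 and 20.5 FPKM in B2D and B2D+FF. The difference between diets of its log2 change was -2.08 with an adjusted p of 0.0566 in limma, so it did not pass. Pck1 was at 1250 and 1010 FPKM there, and the difference between diets did not pass (adjusted p = 0.172). Over all 10780 genes tested in both diets, 43 (0.399%) passed that test, and named members among them were Mup12, Cyp2b9, Hsd3b5, Serpina12 and Cyp2b10.

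**Figure D5:**
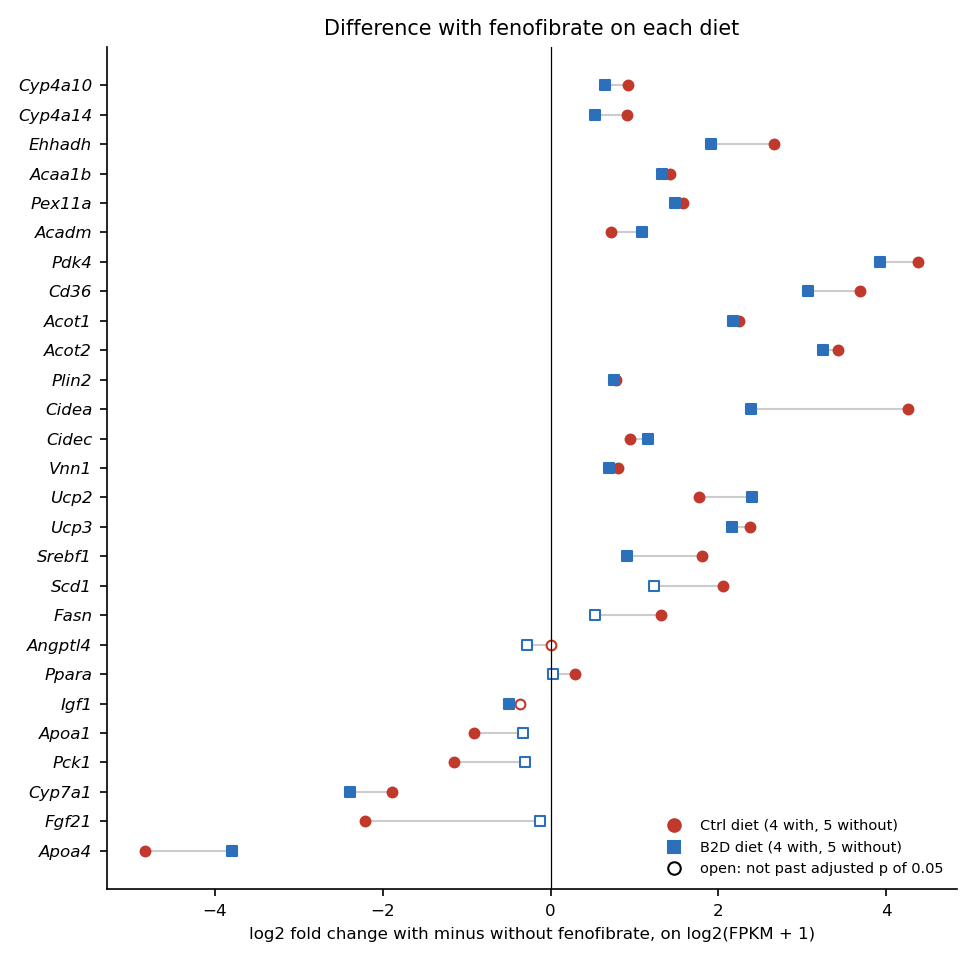
Log2 fold change with minus without fenofibrate (x axis) of 27 genes (y axis) on the control diet (red circles) and on the riboflavin-deficient diet (blue squares), each from 4 mice with and 5 without the drug, with open symbols where the adjusted p in limma was not under 0.05. Fgf21 lies at -2.21 on the control diet and at -0.13 on the deficient diet, and Pdk4 at 4.38 and 3.92.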

How the data were processed

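Liver RNA of 18 mice was sequenced as mRNA libraries (NEBNext Ultra, which does not mark strand) in paired ends. The authors aligned reads to mm10 (STAR), assigned them to genes (featureCounts) and deposited FPKM in 2 tables, without and with fenofibrate. The submitters' processing notes, written by the authors, also name DESeq2, and within each table the library sizes behind the FPKM were those of its median of ratios. Every low value was a whole multiple of 1 read (100% of values, within 0.05 of a whole number), so reads per gene could be recovered from FPKM and gene length. No column of per-sample values was left unused.

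The Ctrl and Ctrl+FF columns were joined on gene identifier and rescaled by the median of ratios over protein-coding genes above 0 in all 9 libraries. Genes with a mean of at least 0.5 FPKM in either group were tested with limma 3.58.1 in R 4.3.3 on log2(FPKM + 1), with a trend in the variance, two-sided. The difference between diets used all 18 libraries. Counts were also simulated around the mean of each gene over the 9 libraries, with the same dispersion for every gene. With 198 genes changed by 1 on the log2 scale, 94.9% were recovered, with 17 other calls among 10395 genes. The simulation had no trend over gene length and no outlying mouse, and far fewer changed genes than passed here. Its rates need not hold for this comparison. P-values measure the spread between mice. With 4 mice against 5, the smallest p of an exact permutation test of a single gene is 0.0159.

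Shared sequence is the percentage of a gene's exonic 50-base words found in another gene of GENCODE vM21 on GRCm38. The 10 largest rises and falls were ranked by log2 change among genes past the threshold without overlap, leaving out predicted gene models. Named genes were these, up to 5 members of each of 45 lists, and 45 genes described in every case. The 21 added ones are members that did not pass but hold a role, or were singled out after their values were seen, as were the list members named without a place in the largest 5. Members and lists were chosen with earlier results of these data known. Alternatives were other scalings, pseudocounts and filters, array weights, voom on recovered reads, all 18 libraries, and each library left out. Leaving out genes with 20% or more shared sequence and removing a lowess trend over gene length (span 0.3) were chosen after seeing the data. Some genes are not reported here.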

Additional observations from a re-analysis of the deposited data

Results flagged for a closer look

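In 26 of 448 groups of 4 or 5 mice, 1 mouse lay far from the others of its group (Dixon's test), where chance gives about 1 in 20 groups. Ctrl replicate 5 was such a mouse for Cyp1a2 (1860 FPKM, others 70.6 to 148), Apoa5 (488, others 772 to 810), Apoc3 (792, others 1210 to 1350), Acad10 (4.75), Slc16a1 (19.3), Pdha1 (30.1), Vldlr (0.74) and Aqp7 (0.148). Ctrl replicate 1 stood apart for Crp (86.3), mt-Nd5 (2580) and Ucp3 (0.0699), Ctrl replicate 2 for Rps12-ps3 (2.78), Ctrl replicate 3 for Ppargc1a (7.12) and Orm3 (2.20), and Ctrl replicate 4 for Ppara (52.5) and Usp18 (9.18).

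In the treated group, Ctrl+FF replicate 3 stood apart for Scd1 (1190 FPKM, others 2660 to 2800), Thrsp (80.3, others 37.7 to 39.1), Ldha (177) and Pdha1 (32.0). Ctrl+FF replicate 1 did so for Adipoq (2.52) and Oat (652, others 345 to 384), Ctrl+FF replicate 2 for Nr1h4 (46.7) and Trib3 (6.33), and Ctrl+FF replicate 4 for Clec4g (8.97) and Inhbc (17.3).

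The log2 change with fenofibrate differed between the control and the riboflavin-deficient diet, by limma's test of the difference, for 5 named genes. The log2 change on the control diet minus that on the deficient diet was 6.69 for Mup12 (adjusted p = 0.000371, 85.4% of 50-base words shared) and 4.0 for Cyp2b9 (adjusted p = 0.0397), which rose more on the control diet. It was -2.40 for Cyp2b10 (adjusted p = 0.0397), which rose less on the control diet. It was -3.24 for Hsd3b5 (adjusted p = 0.0327, 21.2% of 50-base words shared) and -2.10 for Serpina12 (adjusted p = 0.00437). Both fell on the control diet, to 0.267 and 0.0923 FPKM, and were already at 0.373 and 1.76 FPKM in B2D.

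Among transcripts that code for no protein, Gm15441 (chr3:96555765-96566801, minus strand), annotated antisense to Txnip, was at 20.5 ± 7.43 FPKM in Ctrl and 278 ± 55.1 in Ctrl+FF, 13.6-fold higher, and reads from it and from Txnip cannot be told apart where they overlap. Neat1, a nuclear RNA that builds paraspeckles, was at 4.52 ± 1.75 and 18.7 ± 2.41 FPKM, 4.14-fold higher. Processed pseudogenes took a median of 0.361% of reads on genes in Ctrl+FF, and 0.043% to 0.0504% in Ctrl. These levels were described and not tested.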

How the results depend on the processing

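The counts of 1949 higher and 1582 lower genes became 327 and 152 with a log2 change of at least 1, and 1017 lower with a mean of at least 5 FPKM. With the deposited values not rescaled, 1666 were higher and 2033 lower, 45.0% higher against 55.2%, and the median of all genes was -0.05. Leaving out 1 library in turn gave 1583 to 1905 higher and 1164 to 1563 lower. A count model, voom on the recovered reads, called 1961 and 1549. Without genes that share 20% or more of their sequence 1705 and 1387 of 9735 were called, and with the length trend removed 1870 and 1738. The 43 genes whose change differed between diets became 19 at a pseudocount of 0.1, and 24 to 63 with 1 library left out (24 without Ctrl+FF replicate 2, 26 without Ctrl+FF replicate 1 or B2D+FF replicate 4, 28 without B2D replicate 2). The cause of these shifts was not tested.

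Of the 201 named genes past the threshold, 173 kept their call under each of 22 settings and 28 lost it under at least 1. The direction turned for Apoe under quantile normalization (log2 change -0.37, adjusted p = 0.0066 in limma, beside 0.04 and 0.851) and for S100a9 with the length trend removed (-0.21, adjusted p = 0.292, beside 0.50 and 0.0408). Of 1606 list counts under the settings, 1469 were within 1.5 times. No paired analysis was possible because the labels give the groups no shared replicate numbers. Below about 3 reads in a library, 0.208 FPKM for Fabp3, a level could not be told from none, and that floor covers counting error only.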

Other observations

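Ribosomal RNA genes took 0.124% to 0.178% of reads on genes in Ctrl and 0.0338% to 0.0469% in Ctrl+FF, and 0.05% to 0.141% and 0.0226% to 0.0389% in B2D and B2D+FF. Processed pseudogenes took 0.043% to 0.0543% in B2D and 0.383% to 0.478% in B2D+FF, so that both groups of the fenofibrate table lay above both groups of the other table. Mitochondrially encoded genes took 5.17% to 6.47% of protein-coding reads in Ctrl and 7.98% to 9.25% in Ctrl+FF. In B2D and B2D+FF they took 5.76% to 9.38% and 6.68% to 8.77%, which overlap.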
